A study of Mus musculus with 4 samples.

Results

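Single cell RNA sequencing of the adult mouse testis was examined for 9 genes of histone removal and of the histones that spermatids put in place of the usual ones. They are H2AL2A and H2AL1M, variants of H2A made in spermatids, H3F3A and H3F3B, the genes of the replacement histone H3.3, and 5 factors that act on spermatid chromatin, BRDT, RNF8, PHF7, CHD5 and EPC1. The genes were taken by name, and all 9 were found among the 25824 gene symbols of the count tables. The study compared wild type mice (WT, labelled Ctcf wt/wt) with Ctcf-cKO mice (labelled Stra8-iCre-Ctcf f/Δ), in which the Cre recombinase driven by the Stra8 promoter removes Ctcf, the gene of the chromatin insulator protein CTCF, from germ cells around the start of meiosis, while somatic cells of the testis keep it. The labels give testes of C56BL/6J background and an age of 15 weeks for all samples. There were 2 WT mice (WT 1 and WT 2) and 2 Ctcf-cKO mice (Ctcf-cKO 1 and Ctcf-cKO 3), each with 1 library. Filtrates of 2 tubes were pooled for the Ctcf-cKO mouse, and washes were used to remove erythrocytes. Cells were caught and barcoded in ddSEQ droplets, and only the 3′ ends of transcripts were read, so levels are compared between samples for a gene and not between genes.

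A round spermatid carries its DNA on nucleosomes, and a sperm carries most of it on protamines. In between, histone H4 becomes strongly acetylated, testis variants such as the H2A.L proteins enter and loosen the nucleosomes, transition proteins follow, and protamines close the chromatin. BRDT is the testis bromodomain protein that binds acetylated histones, RNF8 and PHF7 are ubiquitin ligases that act on histones H2A and H2B or H3, CHD5 is a chromatin remodeller, and EPC1 is a subunit of the NuA4 acetyltransferase complex. H3f3a and H3f3b code for the same H3.3 protein, which replaces canonical H3 outside of DNA replication, also on the sex chromosomes in meiosis.

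The variant genes are shown first at the level of sequence, because their copies are alike. In the GENCODE annotation of build GRCm38, H2al2a is a gene of 1 exon on the minus strand of chromosome 2 (17996417 to 17996958), and H2al1m is a gene of 1 exon on the plus strand of chromosome X (9283764 to 9284298). Brdt lies on the plus strand of chromosome 5 (107331159 to 107387058). The bases upstream of the RefSeq transcription starts (build GRCm38.p6) are given below on the strand of the gene. They are the 250 bases of chr2:17996959-17997208 (minus strand) for H2al2a and of chrX:9283514-9283763 (plus strand) for H2al1m, where capitals mark the longest stretch that both share, and the 215 bases of chr5:107330944-107331158 (plus strand) for Brdt, where capitals mark a CCAAT match and the last 35 bases before the start were left out because the annotation has an exon there.
H2al2a: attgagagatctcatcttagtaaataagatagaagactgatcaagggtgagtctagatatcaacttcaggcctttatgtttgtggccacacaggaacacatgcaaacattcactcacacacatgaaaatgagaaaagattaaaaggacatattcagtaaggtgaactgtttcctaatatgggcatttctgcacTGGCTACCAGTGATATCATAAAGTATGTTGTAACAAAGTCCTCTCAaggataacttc
H2al1m: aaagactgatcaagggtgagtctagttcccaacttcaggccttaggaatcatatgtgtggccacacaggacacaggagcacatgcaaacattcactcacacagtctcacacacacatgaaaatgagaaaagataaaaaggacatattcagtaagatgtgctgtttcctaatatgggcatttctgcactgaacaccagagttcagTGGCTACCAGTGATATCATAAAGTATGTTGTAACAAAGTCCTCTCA
Brdt: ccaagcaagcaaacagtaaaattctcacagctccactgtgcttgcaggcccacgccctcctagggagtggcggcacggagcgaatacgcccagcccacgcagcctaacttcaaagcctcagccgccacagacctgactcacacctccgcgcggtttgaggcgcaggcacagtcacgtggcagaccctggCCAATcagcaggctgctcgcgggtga

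Although H2al2a is autosomal and H2al1m is X-linked, their upstream bases were alike: 198 of 208 aligned bases were identical (95.2%). The shared stretch of 46 bases began 57 bases before the start of H2al2a and 46 bases before that of H2al1m, and was present in 5 of 32851 upstream windows of this length, those of H2al1m, H2al1n, H2al2a, H2al2b and H2al2c. Neither window held the TATA box letters TATAAA (present in 12.4% of all windows), the CCAAT letters (33.8%) or the cAMP response element TGACGTCA (1.55%) on either strand, and the Brdt window held CCAAT once, 61 bases before the start. The transcript of H2al1m was 96.6% to 99.6% identical to 7 other H2al1 transcripts and 88.7% identical to H2al2a, so reads may have been split between copies, and the value of H2AL1M is uncertain. Over all barcodes, 6 H2AL1 genes held 1895 counts, of which H2AL1N had 1469 and H2AL1M 222, whereas H2AL2A had 6744.

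The other members lie on chromosomes 1 (H3f3a, 180800832 to 180813943, minus strand), 4 (Chd5, 152338651 to 152390194, plus strand), 11 (H3f3b, 116021912 to 116027962, minus strand), 14 (Phf7, 31237689 to 31251317, minus strand) and 17 (Rnf8, 29614790 to 29644991, plus strand). An antisense gene, H3F3AOS, overlaps H3f3a and had 133 counts against 505 of H3F3A. The strand used in counting is not given in the sources used here, so these cannot be told apart fully.

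The libraries held 1593546 to 6701235 counts, with both WT libraries deeper than both Ctcf-cKO libraries, and 884 barcodes were taken as cells (109, 260, 245 and 270 in WT 1, WT 2, Ctcf-cKO 1 and Ctcf-cKO 3). Only 1 cell barcode was shared between libraries. Ctcf itself, the deleted gene, had 110 and 49 counts over all barcodes of WT 1 and WT 2 (16.4 and 10.1 CPM, counts per 1000000 counts of the sum), against 4 and 7 counts for the mutants (1.51 and 4.39 CPM), a log2 fold change of -2.19 (SE 0.67, edgeR adjusted p = 0.0292). Within classes the counts were few: spermatocyte-like cells held 1, 15, 0 and 0 counts, round spermatid-like cells 6, 9, 0 and 4, and clusters 0 and 1 13, 0, 0 and 0. In round spermatid-like cells the library labelled Ctcf-cKO 3 thus stood at 27.2 CPM from 4 counts, above WT 1 (9.51 CPM) and WT 2 (4.82 CPM), so the deletion could not be checked within that class. Whether the counted 3′ end lies outside the deleted part was not checked. Of 9 clusters of cells, cluster 6 (68 cells) carried 22 of 25 spermatocyte markers and is called spermatocyte-like, and clusters 2, 4 and 5 (116, 99 and 80 cells) carried 12 to 18 of 21 round spermatid markers and are called round spermatid-like. Cluster 5 carried 12 of these and 7 spermatocyte markers. Its 10 leading genes included no round spermatid marker, so its name is uncertain. Clusters 0 and 1 (206 and 135 cells) carried 13 and 16 of 20 elongating spermatid markers, but their 10 leading genes included HBB-BS, a haemoglobin gene, in cluster 0 and CTSL, a Sertoli cell marker of the list, in cluster 1, and no elongating spermatid marker. They are therefore given by number. Clusters 3, 7 and 8 carried markers of Leydig cells, peritubular cells or fibroblasts, and macrophages and are called somatic-like. Between 7 and 32 spermatocyte-like cells, 24 and 193 round spermatid-like cells, 30 and 130 cells of clusters 0 and 1 and 5 and 100 somatic-like cells were summed per mouse. Barcodes with under 200 genes, which serve as a measure of free RNA, summed to 104983 to 1081040 counts per library.

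H2AL2A, the H2A variant that is known to be needed for the loading of transition proteins, was highest in clusters 0 and 1 in the WT mice. Its level there was 1447 CPM in WT 1, 1129 in WT 2, 477 in Ctcf-cKO 1 and 653 in Ctcf-cKO 3. Round spermatid-like cells held 227, 313, 175 and 191 CPM in the same order, and in spermatocyte-like cells 89.0, 166, 226 and 178 CPM. Clusters 0 and 1 were above round spermatid-like cells in 4 of 4 mice, by 6.38-, 3.6-, 2.72- and 3.42-fold. Somatic-like cells, which should lack the gene, held 380, 432, 278 and 244 CPM, and both the spermatocyte-like and the summed round spermatid-like level were below this in every mouse. Barcodes under 200 genes held 238, 542, 654 and 556 CPM. The level of clusters 0 and 1 was 6.08, 2.08, 0.729 and 1.17 times that of free RNA, so only the WT mice were clearly above it. Among the round spermatid-like clusters, ordered by the share of counts from transition protein and protamine genes, cluster 4 held 198, 197.5, 74.6 and 146 CPM, cluster 2 held 428, 390.5, 258 and 0 CPM, and cluster 5 held 775, 646, 344 and 439 CPM. Cluster 5 was thus the highest of these in 4 of 4 mice and above somatic-like cells in each, whereas the values of cluster 2 rest on 3 cells in WT 1 and 5 in Ctcf-cKO 3. Compared with barcodes under 200 genes, cluster 5 was higher in both WT mice and lower in both Ctcf-cKO mice. The Ctcf-cKO values of cluster 5 rest on 14 counts each.

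H2AL1M, the X-linked relative, had 79 counts in clusters 0 and 1 of all mice, 23 in round spermatid-like cells and 3 in spermatocyte-like cells. Its level in clusters 0 and 1 was 49.5 CPM in WT 1, 51.0 in WT 2, 17.6 in Ctcf-cKO 1 and 2.84 in Ctcf-cKO 3, and only 1 count was found in somatic-like cells. Barcodes under 200 genes held 9.5, 20.3, 27.75 and 37.4 CPM in the same order. Both Ctcf-cKO values of clusters 0 and 1 were thus below free RNA. All 56 and 13 counts of the WT mice were in cluster 0.

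Unlike H2AL2A, H3F3B, which codes for H3.3, was lowest in clusters 0 and 1. In round spermatid-like cells it stood at 991 CPM in WT 1, 925 in WT 2, 1113 in Ctcf-cKO 1 and 1492 in Ctcf-cKO 3, above spermatocyte-like cells (849, 715, 959 and 535 CPM) in 4 of 4 mice. In clusters 0 and 1 it stood at 60.1, 78.4, 238 and 358 CPM, below round spermatid-like cells by 16.5-, 11.8-, 4.67- and 4.17-fold. Over the 4 mice the means were 1130 ± 253 CPM (SD, n = 4) in round spermatid-like, 765 ± 183 in spermatocyte-like, 537 ± 259 in somatic-like cells and 184 ± 141 in clusters 0 and 1. The ranges of 1 SD of neighbours in this order overlap, but clusters 0 and 1 were the lowest of these classes in 4 of 4 mice. Cluster 4 held 1009, 1260, 1396 and 1699 CPM and cluster 5 held 184.5, 376.5, 221 and 595 CPM, lower in 4 of 4 mice. From cluster 5 to cluster 1 the level was lower again in each mouse (89.2, 69.6, 66.3 and 276.5 CPM), and cluster 0 (48.4, 81.0, 292 and 403 CPM) was above cluster 1 except in WT 1.

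H3F3A, the other gene of the same protein, was found at 505 counts over all barcodes, against 9676 of H3F3B. In round spermatid-like cells it was 50.7, 45.0, 63.1 and 40.9 CPM, and in clusters 0 and 1 it was 5.31, 15.7, 37.1 and 14.2 CPM, lower in 4 of 4 mice. The latter values rest on 34 counts in all.

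**Figure D1:**
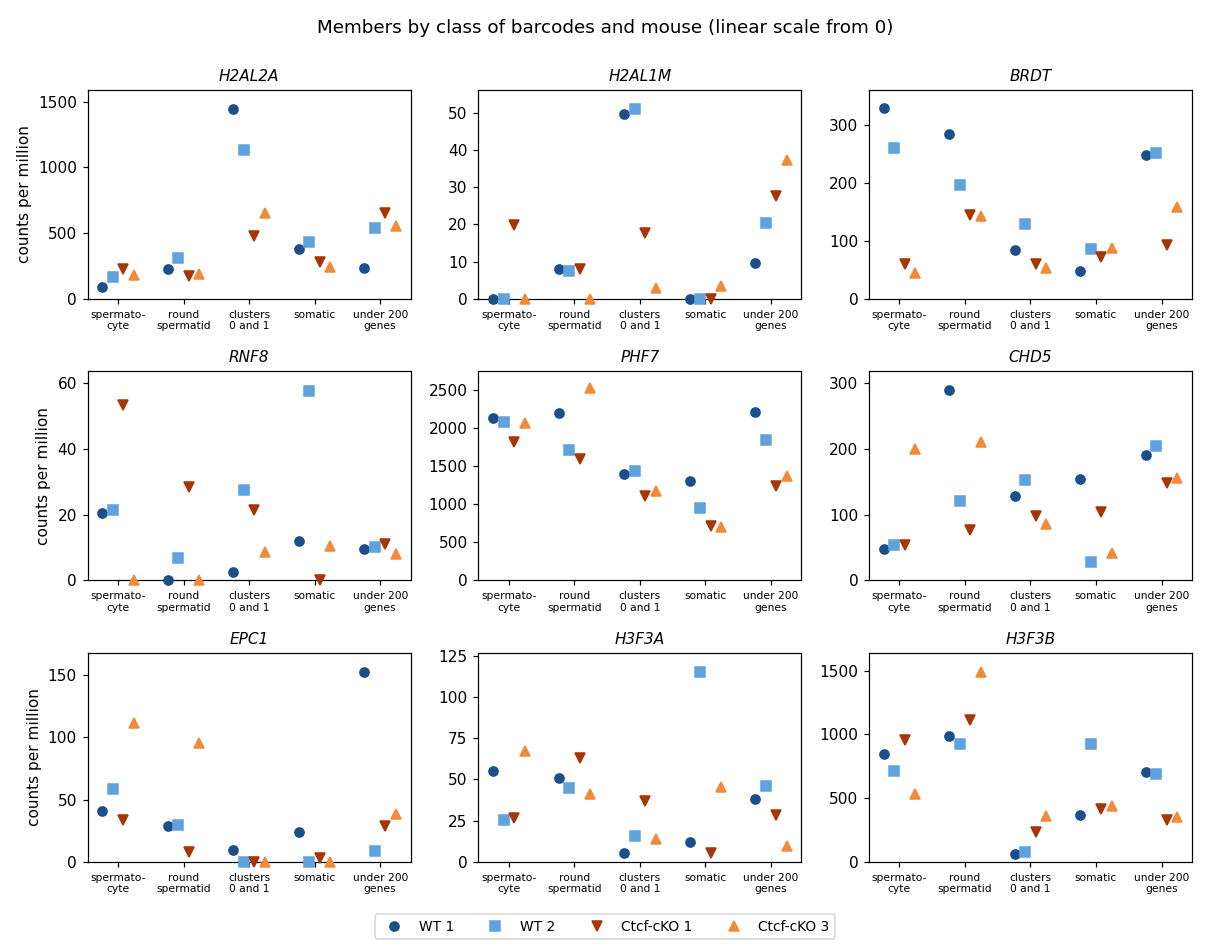
Level of each of the 9 genes in CPM (vertical axes, linear from 0) in 5 sets of barcodes (horizontal axis), with 1 point per mouse. The points of H2AL2A in clusters 0 and 1 lie between 477 and 1447 and those of H3F3B between 60.1 and 358, while H3F3B in round spermatid-like cells lies between 925 and 1492.

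BRDT, the acetyl-histone reader that is known to act in meiosis and again in spermatids, had its highest values in the WT spermatocyte-like cells. There it was 329 CPM in WT 1, 259 in WT 2, 59.9 in Ctcf-cKO 1 and 44.6 in Ctcf-cKO 3, from 48, 133, 9 and 2 counts. Round spermatid-like cells held 284, 195.5, 144.5 and 143 CPM, and in clusters 0 and 1 it was 84.9, 129, 60.6 and 53.9 CPM, lower than in round spermatid-like cells in 4 of 4 mice. The order of the WT mice, spermatocyte-like, then round spermatid-like, then clusters 0 and 1, was not that of the Ctcf-cKO mice, in which round spermatid-like cells were highest. Somatic-like cells held 47.5, 86.4, 72.9 and 87.1 CPM, which in the Ctcf-cKO mice is above both clusters 0 and 1 and spermatocyte-like cells, so these are read as background. Barcodes under 200 genes held 248, 251, 92.5 and 158 CPM. This is above clusters 0 and 1 in every mouse, above round spermatid-like cells in WT 2 and Ctcf-cKO 3, and near the spermatocyte-like level of WT 2. The orders given are thus in part not clear of free RNA.

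PHF7, the ubiquitin ligase known for binding methylated H3 and marking H2A in spermatids, was the member with the most counts (28754 over all barcodes). It was 2137, 2077, 1818 and 2074 CPM in spermatocyte-like cells, 2205, 1711, 1600 and 2527 CPM in round spermatid-like cells and 1405, 1435, 1110 and 1178 CPM in clusters 0 and 1. The first pair did not differ beyond its spread (2026 ± 142 and 2011 ± 433 CPM, SD, n = 4), and clusters 0 and 1 were below both in 4 of 4 mice. Cluster 1 was lower than cluster 0, with 215, 278, 423 and 648 CPM against 1886, 1771, 1322 and 1476 CPM. Somatic-like cells held 1307, 951, 712.5 and 696.5 CPM, which is also above the level of cluster 1 in every mouse, and barcodes under 200 genes held 2210, 1850, 1239 and 1369 CPM. RNF8, the ligase known for ubiquitinating H2A and H2B on meiotic sex chromosomes and in elongating spermatids, had 22, 27 and 24 counts in spermatocyte-like cells, round spermatid-like cells and clusters 0 and 1 of all mice. No order of its levels can be read at this depth.

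CHD5, the remodeller whose loss is known to impair histone removal in mouse spermatids, was 290, 120.5, 77.4 and 211 CPM in round spermatid-like cells and 129, 153, 97.7 and 85.2 CPM in clusters 0 and 1. It was higher in round spermatid-like than in spermatocyte-like cells in 4 of 4 mice (48.0, 54.6, 53.3 and 200.7 CPM in the latter), but the means of 175 ± 95 and 89.1 ± 74.4 CPM (SD, n = 4) overlap. The spermatocyte-like values rest on 7, 28, 8 and 9 counts. Somatic-like cells held 154, 28.8, 104 and 41.8 CPM, in Ctcf-cKO 1 above round spermatid-like cells. Barcodes under 200 genes held 190.5, 205, 149 and 156 CPM. This is above clusters 0 and 1 in every mouse and above round spermatid-like cells in WT 2 and Ctcf-cKO 1, so the order of CHD5 is not clear of background. EPC1, the NuA4 subunit, had 46 counts in spermatocyte-like cells (41.1, 58.5, 33.3 and 111.5 CPM), 91 in round spermatid-like cells (28.5, 29.5, 8.14 and 95.4 CPM) and 11 in clusters 0 and 1, all of WT 1. The 0 counts in the other mice allow up to 11.8 CPM in WT 2, 5.86 in Ctcf-cKO 1 and 8.52 in Ctcf-cKO 3 (3 counts, for counting error only). These limits treat each count as independent and may be too low, because a count of 4 was common in these libraries. The spermatocyte-like level was above the level or limit of clusters 0 and 1 in 4 of 4 mice. In Ctcf-cKO 1 and in Ctcf-cKO 3 that level rests on 5 counts in 2 cells.

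**Figure D2:**
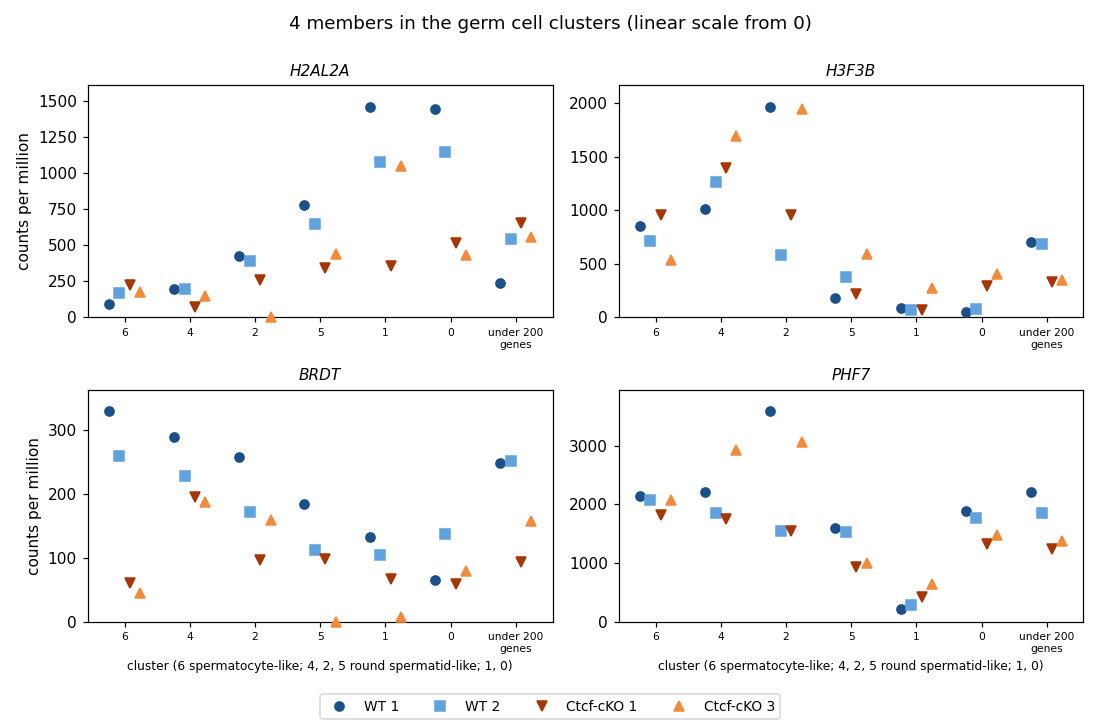
Level of H2AL2A, H3F3B, BRDT and PHF7 in CPM (linear from 0) in the spermatocyte-like cluster 6, the round spermatid-like clusters 4, 2 and 5, clusters 1 and 0, and barcodes under 200 genes, with 1 point per mouse. H3F3B of the WT mice falls to at most 89.2 in clusters 1 and 0, and PHF7 is at 215 to 648 in cluster 1 and at 1322 to 1886 in cluster 0.

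To ask whether the loss of CTCF changes these genes at a given stage, the counts of each class were added up within a mouse, and edgeR was run across all genes that passed its filter on low counts (Benjamini-Hochberg adjusted p under 0.05). Mice are the replicates. In spermatocyte-like cells 0 of the 4 members that passed the filter were called, against 1.16% of 3606 genes, and 1 member, BRDT, had an unadjusted p under 0.05. BRDT was lower in both Ctcf-cKO mice than in both WT mice, with the values given above, a log2 fold change of -2.35 (SE 0.70, edgeR adjusted p = 0.234). Its adjusted p was 0.178 to 1 under the alternatives. DESeq2 likewise called 0 members here. How many of all genes lie wholly lower or wholly higher in both Ctcf-cKO mice was not counted, here or in the comparisons below. Such a separation of the groups alone is not read as a result. The 13 Leydig cell markers summed in this class to 151, 179, 8350 and 3255 CPM (WT 1, WT 2, Ctcf-cKO 1 and Ctcf-cKO 3). The 15 Sertoli cell markers summed to 226, 206.5, 2098 and 3456 CPM in the same order. Without batch correction, Leydig cell markers named 4 of 15 and 8 of 14 spermatocyte-like cells of the Ctcf-cKO mice. The part of other cells in the BRDT difference was not tested. The other members tested, H2AL2A, PHF7 and H3F3B, had log2 fold changes of 0.68, -0.10 and 0.01. H3F3B took a negative sign in 7 of its alternatives, so no direction is given. RNF8, CHD5, EPC1, H3F3A and H2AL1M did not pass the filter.

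In round spermatid-like cells 0 of 7 members tested were called, against 0.0296% of 6756 genes (2 genes), and 0 had an unadjusted p under 0.05. DESeq2 also called 0 members. The log2 fold changes ran from -0.79 for BRDT (SE 0.37, edgeR adjusted p = 0.935) to 0.49 for EPC1 (SE 1.045). The Ctcf-cKO mice were both below the WT mice for BRDT and H2AL2A and both above them for H3F3B, without passing the test. The share of all genes separating in this way was not counted, so no change is read from it.

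In clusters 0 and 1 summed, 2 of 6 members tested were called. H2AL2A fell, from 1447 and 1129 CPM (WT) to 477 and 653 CPM (Ctcf-cKO), with a log2 fold change of -1.42 (SE 0.27, edgeR adjusted p = 0.0108, 2.67-fold). H3F3B rose, from 60.1 and 78.4 CPM to 238 and 358 CPM, with a log2 fold change of 1.92 (SE 0.36, edgeR adjusted p = 0.0105, 3.79-fold). The groups did not overlap for either gene. Over all genes of this comparison, 14.8% of 4742 were higher and 3.77% lower in the Ctcf-cKO mice. With library totals in place of edgeR's scaling the median log2 fold change of all genes moved from 0.13 to 0.42, and the calls from 703 higher and 179 lower to 835 higher and 49 lower, while H2AL2A kept its fall (-1.12) and H3F3B its rise (2.22). H2AL1M, BRDT, CHD5 and PHF7 had log2 fold changes of -2.39 (SE 0.84), -1.06 (SE 0.44), -0.82 (SE 0.36) and -0.52 (SE 0.21) and did not pass (edgeR adjusted p = 0.079, 0.118, 0.144 and 0.115). Each was lower in both Ctcf-cKO mice than in both WT mice. The share of all genes tested whose groups do not overlap was not counted, so no fall of these uncalled members is read from it. RNF8, EPC1 and H3F3A did not pass the filter.

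Both calls lay in cluster 0. There H2AL2A was 1443 and 1144 CPM against 514 and 430 CPM with Ctcf deleted (log2 fold change -1.60, SE 0.24, edgeR adjusted p = 0.000586), and H3F3B was 48.4 and 81.0 CPM against 292 and 403 CPM (2.37, SE 0.39, edgeR adjusted p = 0.00106). These were 2 of 6 members tested, beside 17.5% of 3647 genes higher and 6.28% lower. In cluster 1, 0 of 4 members were called, 0 had an unadjusted p under 0.05, and DESeq2 also called 0, against 0.541% of 1848 genes. H2AL2A was 1458 and 1078 CPM there against 356 and 1051 CPM, and H3F3B 89.2 and 69.6 CPM against 66.3 and 276.5 CPM, so 1 of the mutant mice stood at or near the WT level for each gene. Whether the effect differs between the clusters was not tested.

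**Figure D3:**
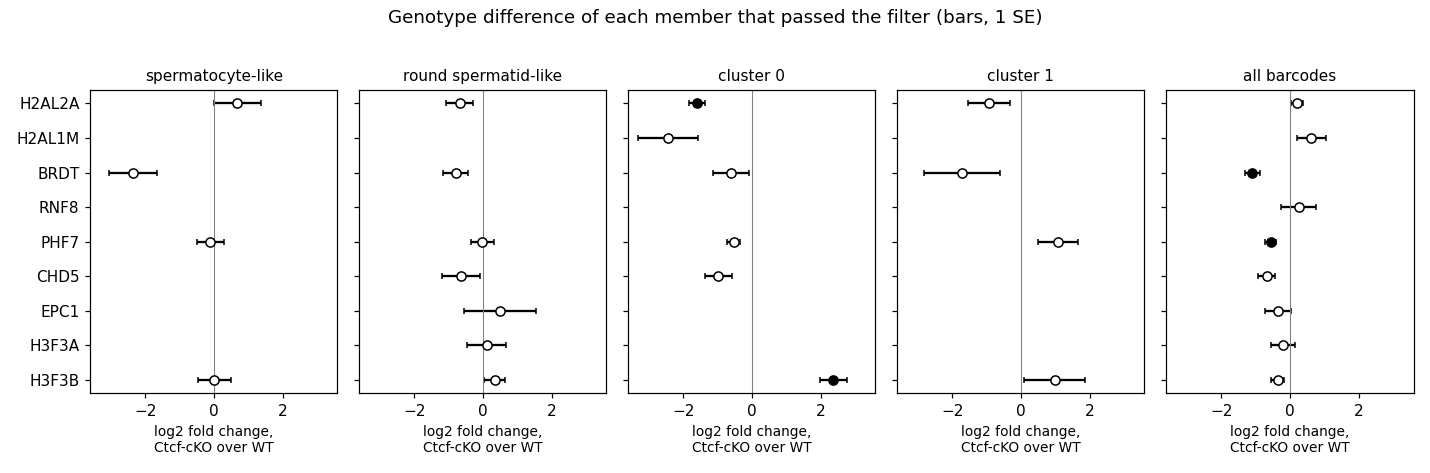
Log2 fold change of Ctcf-cKO over WT (horizontal axis) for each member that passed the filter (rows), in 5 comparisons, from edgeR with 2 mice per genotype. Bars are 1 SE and filled points have an adjusted p under 0.05: H2AL2A at -1.60 and H3F3B at 2.37 in cluster 0, and BRDT at -1.10 and PHF7 at -0.56 in all barcodes.

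Several measures moved with these calls. In cluster 0 the Ctcf-cKO sums lay at the level of free RNA for both genes, with H2AL2A at 0.786 and 0.773 times and H3F3B at 0.885 and 1.16 times the barcodes under 200 genes, whereas the WT sums lay at 6.06 and 2.11 times for H2AL2A and 0.0687 and 0.118 times for H3F3B. The 13 Leydig cell markers summed to 65.8, 111, 2540 and 2371 CPM in cluster 0 (5, 2, 13 and 12 of them with counts), against 352, 273, 3097 and 3205 CPM in barcodes under 200 genes. The 4 red blood cell markers in the tables summed to 2.48, 0, 8207 and 1626 CPM, so both lists stood higher with Ctcf deleted. Markers of Sertoli cells (15 listed, SOX9 and FSHR at 0 in all mice) summed to 45.9, 111, 2074 and 2769 CPM, and those of macrophages (13 listed) to 34.8, 121, 1517 and 1400 CPM. The genes TNP1, TNP2, PRM1 and PRM2 made up 20.9%, 21.2%, 14.0% and 14.5% of the counts. Cells of clusters 0 and 1 held a median of 14950, 5092, 3317 and 1648 counts. The part of free RNA, other cells and depth in the difference between genotypes was not tested.

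Both calls were kept when a fixed number of barcodes was taken as cells, at cluster resolution 1.3 and with doublets left out, but not without batch correction of the clustering. At cluster resolution 0.5 clusters 0 and 1 held the same cells as reported, so that setting could not change the calls. In the latter case 65 of 66 and 28 of 30 of these cells in the WT mice were again named by elongating spermatid markers, but 23 of 115 and 24 of 130 in the Ctcf-cKO mice, and most of the rest were named by Sertoli or Leydig cell markers. The cluster with the Sertoli name carried 6 of 15 Sertoli cell markers and 5 elongating spermatid markers. Its 10 leading genes included no Sertoli cell marker, and TNP1, TNP2, PRM1 and PRM2 made up 13.9% of its counts. Its name is therefore uncertain. Of the round spermatid-like cells, 69 of WT 2 and 6 in each other mouse entered the class, which then held 72, 97, 30 and 31 cells. In the classes so formed 0 members were called, H3F3B turned to a log2 fold change of -0.51 and H2AL2A had -0.86 (edgeR adjusted p = 0.767 and 0.488). Without Ctcf-cKO 1, 0 members and 0 genes of any kind were called in clusters 0 and 1 together (784 genes had an unadjusted p under 0.05), with log2 fold changes of -1.26 for H2AL2A and 2.13 for H3F3B, and without Ctcf-cKO 3 only H2AL2A was called (-1.72), H3F3B standing at 1.54. Without WT 2, H2AL1M (-2.67) and PHF7 (-0.83) were called as well. H2AL1M was also called with a fixed number of barcodes (-3.82, edgeR adjusted p = 0.0167), at cluster resolution 1.3 (-3.1, 0.0341) and with doublets left out (-2.96, 0.0401), and its adjusted p ran from 0.00697 to 0.325 over the alternatives. In cluster 0 alone both genes were called without each mouse in turn.

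Over all barcodes summed, with no choice of cells, the called members were others: BRDT and PHF7 were lower in the Ctcf-cKO mice, 2 of 9 members, against 10.1% of 14552 genes lower (18.4% were higher). BRDT was 253 and 211 CPM (WT) against 92.0 and 116 CPM (Ctcf-cKO) (log2 fold change -1.10, SE 0.21, edgeR adjusted p = 0.00301). PHF7 was 2196 and 1778 CPM against 1237 and 1327 CPM (-0.56, SE 0.16, edgeR adjusted p = 0.0228). The groups did not overlap for either gene, and in barcodes under 200 genes both were also lower in both Ctcf-cKO mice, with BRDT at 248 and 251 against 92.5 and 158 CPM and PHF7 at 2210 and 1850 against 1239 and 1369 CPM. The share of all genes without such overlap was not counted. Such sums mix all cells of the testis, so fewer cells of a type and less RNA per cell cannot be told apart, and somatic-like cells numbered 12, 5, 63 and 100 in the order of the mice above.

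H2AL2A and H3F3B, the members called in clusters 0 and 1, did not pass over all barcodes. H2AL2A was 427 and 401.5 CPM against 443 and 475 CPM (0.21, SE 0.17, edgeR adjusted p = 0.389), and H3F3B was 597 and 730.5 CPM against 513 and 481 CPM (-0.36, SE 0.18, edgeR adjusted p = 0.171). Both thus had the opposite sign to that in clusters 0 and 1. CHD5 was 251 and 150 CPM against 112 and 127 CPM (-0.68, SE 0.25, edgeR adjusted p = 0.0572), and H2AL1M, RNF8, EPC1 and H3F3A had log2 fold changes between -0.34 and 0.62 with adjusted p of 0.304 to 0.754. Without Ctcf-cKO 1 neither BRDT (-0.95, adjusted p = 0.0889) nor PHF7 (-0.54) was called, and without Ctcf-cKO 3 BRDT alone was. Of the values above 0, a count of 4 made up 11.5% in each WT library. It made up 30% in Ctcf-cKO 1 and 23.1% in Ctcf-cKO 3, so its share differed with genotype. A count of 1 made up 38.89%, 30.97%, 18.39% and 23.87% in the order of the mice above, and a count of 5 only 2.81% to 3.54%. Each count was therefore divided by 4 and rounded up. BRDT was then still called (-0.96) and PHF7 was not (-0.22). Beyond this setting, the part of these shares in the differences between genotypes was not tested. CHD5 was called with no filter (-0.81, edgeR adjusted p = 0.00649), with library totals (-0.75, 0.0465) and without WT 2 (-1.01), its adjusted p running from 0.000285 to 0.322 over the alternatives, and H3F3B without WT 1 (-0.55).

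**Figure D4:**
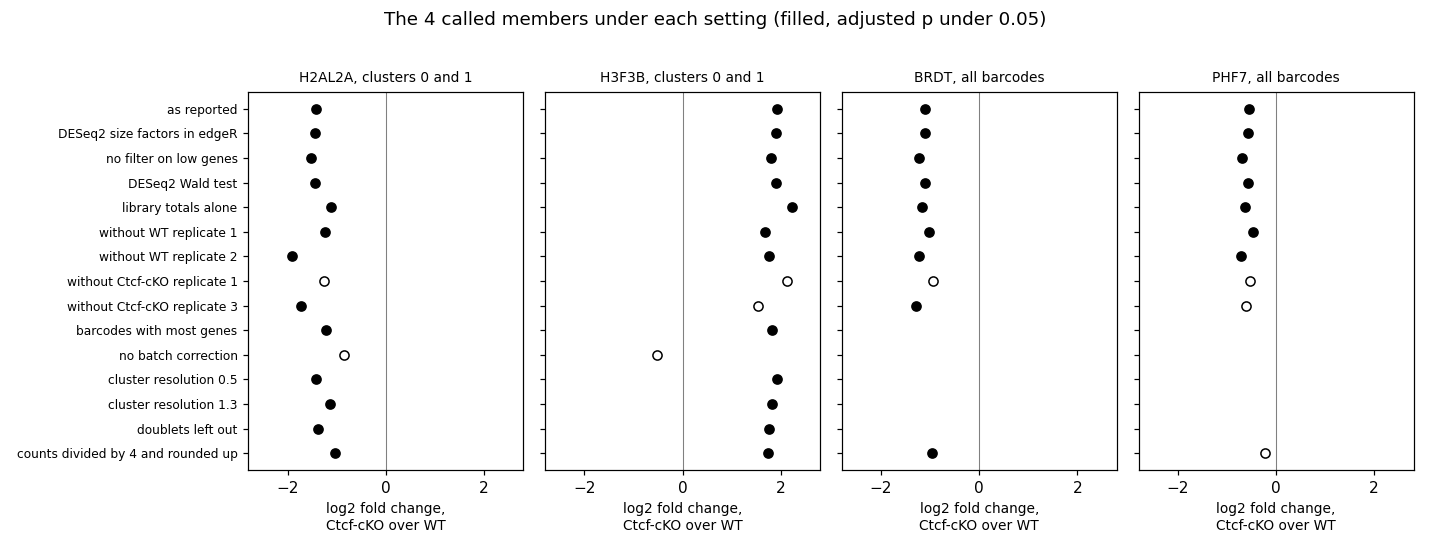
Log2 fold change of Ctcf-cKO over WT (horizontal axis) for the 4 called members under each processing setting (rows), with filled points for an adjusted p under 0.05. Settings that choose cells do not apply to all barcodes. H3F3B lies between 1.54 and 2.22 except without batch correction, where it is at -0.51.

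Whether the genotype effect differed between round spermatid-like cells and clusters 0 and 1 was tested by an interaction term with the mouse as a block, since each mouse gives both sums. None of the 9 members passed (edgeR adjusted p = 1 for each, and 0 had an unadjusted p under 0.05), against 0.0257% of 7782 genes. The effect in clusters 0 and 1 minus that in round spermatid-like cells was 1.27 for H3F3B (SE 0.79) and -1.03 for H2AL2A (SE 0.83), so the call in one class and not in the other does not show a difference between the classes.

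Of the wider set of genes of the exchange, listed with the results of these data known, none of 32 tested beside the members was called in spermatocyte-like cells and none of 38 in round spermatid-like cells. The shares called over all genes there were 1.16% and 0.0296%. In clusters 0 and 1, 2 of 25 rose and 4 fell, beside 14.8% and 3.77% of all genes tested. Their median log2 fold change was -0.17 against 0.13 over all genes tested. Among the spermatid and testis histones, H2AL1N, the near copy of H2AL1M, fell by 0.99 on the log2 scale (SE 0.29, edgeR adjusted p = 0.0438). H1FNT, a linker histone of spermatids named after its value was seen, fell by 0.80 (SE 0.22, edgeR adjusted p = 0.0372). Of the 5 transition proteins and protamines tested, TNP1 fell by 1.14 (SE 0.22, edgeR adjusted p = 0.011) and TNP2 by 0.82 (SE 0.22, edgeR adjusted p = 0.0315). The genes that rose were HSPA2 (1.36, SE 0.38), a chaperone of transition proteins listed with H3.3 and its chaperones, and TRRAP (4.20, SE 1.08), a NuA4 subunit. TRRAP did not pass the filter on low counts in cluster 0 or cluster 1 alone. Nor did it pass in spermatocyte-like or round spermatid-like cells, so the size of its rise is uncertain. Among ubiquitination and remodelling genes other than the members 0 of 4 were called. Over all barcodes, 4 of 53 listed genes other than the members rose and 6 fell, beside 18.4% and 10.1% of all genes tested. Among them were ATRX, which loads H3.3 with DAXX (2.81, SE 0.80), PSMA8, a subunit of the testis proteasome (-1.33, SE 0.45), MORF4L1, a NuA4 subunit (-1.19, SE 0.25) and NASP, a histone chaperone (-0.997, SE 0.20). For 3 genes named after their values were seen the sign was not that of clusters 0 and 1: HSPA2 fell by 0.87 (SE 0.17), H2AL1N rose (0.74, SE 0.22) and so did TNP2 (0.50, SE 0.14).

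Over the 16 sums per mouse and class (spermatocyte-like, round spermatid-like, clusters 0 and 1, somatic-like), the genes whose log2(CPM + 1) followed each member most closely among 9989 others were found as a description. H2AL2A was most like PSMF1 (Pearson's r = 0.93), H1FNT (0.93) and 1700029H14RIK (0.92). H3F3B was most like CFAP45 (0.95), MZT2 (0.94) and GMFB (0.93). BRDT was most like PLAAT1 (0.93), 1110035H17RIK (0.92) and CATIP (0.90), and PHF7 like D130020L05RIK (0.92), MFF (0.89) and 4922502D21RIK (0.89). EPC1 was most like CNTD1 (0.94), CHD5 like TMCO5 (0.88), H2AL1M like GM49462 (0.88), H3F3A like SLC26A8 (0.81) and RNF8 like ZMAT2 (0.81). The sums share libraries and depth, so these values carry no test.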

How the data were processed

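The authors dissociated testes, barcoded cells in ddSEQ droplets, made 3′ libraries, and used build GRCm38 (submitters' processing notes). The values deposited are raw counts, whole numbers for every symbol in every barcode. The counting tool and how reads of 1 molecule were merged are not given in the sources used here. The members and lists were chosen with earlier results of these data known.

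Barcodes were taken as cells with 200 to 7000 genes, at most 10% mitochondrial counts and at least 3 times the plateau of the rank curve of their library. Cells were clustered in Seurat 5.3.0 (2000 variable genes without the members, 15 principal components, Harmony coded anew, resolution 0.9). A cluster was named by the marker list with most members higher (at least 3). Scrublet called 67 doublets, which were kept in the main values and left out in an alternative. Sums per mouse and class (at least 5 cells) were compared across all genes by the quasi-likelihood test of edgeR 4.0.16 (R 4.3.3), after filterByExpr and TMM scaling, with Benjamini-Hochberg adjustment. SEs were obtained from the log2 fold change and its F statistic. The p-values rest on 2 mice per genotype, and edgeR estimates the spread of a gene with information shared across genes. They therefore do not reflect the observed spread between mice of that gene alone. Median counts per cell were 13576, 7826.5, 4474 and 2155.5, which limits the precision of low genes. The tests were checked on simulated data with 200 genes changed by 2 on the log2 scale. Of these, 0 were recovered in spermatocyte-like cells and in cluster 1, and 49 in round spermatid-like cells. Clusters 0 and 1 summed gave 109, cluster 0 gave 133 and all barcodes gave 125. A lack of calls thus says little in spermatocyte-like cells, round spermatid-like cells and cluster 1. Levels across stages were not tested. All 9 members were named in each comparison, other listed genes only where called (at most 5 per comparison, by size, of which 1 is not reported here; others are marked as named after their values were seen), and the 3 genes most like a member among those with at least 50 counts. Upstream sequences came from RefSeq (GRCm38.p6) and matched 8 members by symbol. The alternatives were another normalization, DESeq2 1.42.0, no filter, each mouse left out, other sets of cells and other clusterings. After the data were seen, library totals, counts divided by 4 and each of clusters 0 and 1 on its own were added.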

Additional observations from a re-analysis of the deposited data

Results flagged for a closer look

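For H2AL2A the Ctcf-cKO mice lay on opposite sides of the WT mice at different stages. In spermatocyte-like cells both Ctcf-cKO mice were above both WT mice, with a mean difference of 75.1 CPM. In round spermatid-like cells both were below, by a difference of -87.1 CPM, and in clusters 0 and 1 by -723 CPM. The difference between spermatocyte-like and later cells was not tested. That between round spermatid-like cells and clusters 0 and 1 did not pass (interaction term -1.03, edgeR adjusted p = 1). The first 2 differences are between levels below that of somatic-like cells. The share of all genes separating in this way was not counted.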

How the results depend on the processing

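No paired analysis was possible because the genotypes share only replicate number 1 (the interaction has the mouse as a block). The count of called members stayed within 1.5 times the reported one in all settings that keep every mouse, except for clusters 0 and 1 without batch correction (0 in place of 2) and all barcodes with counts divided by 4 (1 in place of 2). Cluster resolution 0.5 left the cells of clusters 0 and 1 unchanged and is no check on them. With each mouse left out it ran from 0 to 4 in clusters 0 and 1, from 2 to 4 in cluster 0 and from 0 to 3 in all barcodes, and was 0 in the other comparisons, from which no stability can be read in spermatocyte-like cells and cluster 1. The genotype with a lone mouse is then assumed to vary like the other. Without batch correction, too few spermatocyte-like cells were left in Ctcf-cKO 3 for a value. Dividing counts by 4, library totals, and each of clusters 0 and 1 on its own were chosen after seeing the data.

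These log2 fold changes changed sign. In spermatocyte-like cells H3F3B took -0.25 with no filter, -0.031 with library totals, -0.13 with a fixed number of barcodes as cells, -0.17 with doublets left out, and -0.81 to 0.48 without a mouse. In round spermatid-like cells PHF7 took 0.082 with library totals, 0.013 with the fixed number of barcodes, 0.090 without batch correction, 0.054 with doublets left out, 0.10 with counts divided by 4, and -0.34 to 0.11 without a mouse. EPC1 there took -0.28 with the fixed number of barcodes, -0.18 with doublets left out, and -1.9 to 1.41 without a mouse. H3F3A there took -0.055 with no filter, -0.037 without batch correction, -0.060 with counts divided by 4, and -0.50 to 0.33 without a mouse. In clusters 0 and 1 without batch correction CHD5 took 0.12 in place of -0.82 and H3F3B -0.51 in place of 1.92. Without a mouse, over all barcodes, RNF8 ran from -0.58 to 0.70, EPC1 from -0.81 to 0.032 and H3F3A from -0.61 to 0.054. H3F3B in cluster 1 ran from -0.38 to 1.57, and the interaction from -1.97 to 0.86 for H2AL1M, from -3.2 to 2.99 for RNF8 and from -0.84 to 0.48 for CHD5. The cause was not tested. The adjusted p of H2AL2A in clusters 0 and 1 ran from 8.52e-10 to 0.488 and that of H3F3B from 0.000311 to 0.767, over all barcodes that of BRDT from 7.32e-06 to 0.0889 and that of PHF7 from 5.89e-07 to 0.373. Depth limits RNF8, EPC1 and H2AL1M most, with 191 to 444 counts over all barcodes.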
